A study of Homo sapiens with 18 samples.

Results

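POU2F2 and 9 further transcription factors that set or guard the myeloid lineage were followed in THP-1 cells, a human acute monocytic leukaemia cell line. They are POU2F2, SPI1, CEBPA, CEBPB, CEBPE, GFI1, RUNX1, MYB, MYC and KLF4, found as the rows of the deposited table whose Ensembl identifier carries one of these symbols. All 10 were present among the 63677 genes of the table, and 9 of them were among the 16678 genes with enough counts to be tested. The exception was CEBPA. POU2F2 was selected on these data, as the gene with the smallest adjusted p among those lower in KD than in SCR without LPS. GFI1 was chosen by its fall with LPS in WT. The other 8 joined them as regulators of the same lineage.

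The series holds 18 RNA libraries in 6 groups of 3. In KD the cells were transfected with an siRNA against TRAFD1 at 25 nM, and in SCR with a scrambled one. WT cells had no siRNA; the protocol gives them as transfection mix alone, while a label calls them untreated. After 72 h they were given lipopolysaccharide (LPS) at 10 ng/ml, a bacterial cell wall component that activates monocytes, or medium, for 4 h. Replicates were numbered 1 to 3 with medium and 4 to 6 with LPS. All groups come from this 1 line, whose leukaemic cells are arrested partway towards monocytes. Treatments were done in triplicate per the labels, which do not say whether on separate days or passages, so p-values measure the spread between these libraries.

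Lineage choice in blood cells rests on a small set of DNA-binding proteins that act in opposition. PU.1 (the product of SPI1) and the C/EBP proteins drive progenitors towards monocytes and granulocytes, with RUNX1 acting upstream of both. MYB and MYC keep progenitors dividing, GFI1 represses monocyte genes in favour of granulocytes, and KLF4 is switched on late in monocyte differentiation. POU2F2 (OCT2) binds the octamer motif. It is best known from B lymphocytes, where it works with the coactivator POU2AF1, and it is also found in macrophages.

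Total counts ran from 8206023 to 22344279 per library. Values are CPM, counts per 1000000 counts of a library whose size was scaled by the TMM method. A log2 fold change is given with its standard error (SE), and an adjusted p is corrected over all tested genes, with 0.05 as the threshold. A count of 0 allows up to 3 counts, which is 0.133 to 0.378 CPM depending on the library and covers counting error only. TRAFD1, the target of the siRNA, was 8.67 ± 3.14 CPM in KD and 23.7 ± 3.38 CPM in SCR without LPS (SD, n = 3 each), with no overlap. With LPS the values were 14.5 ± 1.12 and 22.7 ± 4.42 CPM (SD, n = 3 each), a difference that edgeR did not call (log2 -0.65, SE 0.22, adjusted p 0.26). Against WT with LPS, TRAFD1 in KD was at log2 -0.23 (SE 0.23, edgeR adjusted p 0.56), with overlapping groups. All 10 monocytic markers examined were present in every library, with a summed level of 1011 to 1323 CPM. The erythroid markers GATA1, HBB and ALAS2 and the epithelial marker KRT19 were at 0 counts in all libraries.

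Sequences of the siRNA and of promoters are shown because the groups differ by an siRNA and because several of these genes moved together. The question for the siRNA is whether it could pair with a member. The target sequence given in the labels is 21 bases long, and only transcripts of TRAFD1 held all of it. A strand complementary to it would carry a seed, its bases 2 to 8, whose match in a transcript is the 7 bases in capitals in the target and in the 3-prime untranslated region of POU2F2:
siRNA target: cccagccgacccaTTAACAAt
POU2F2 match: gaaggaaaacTTAACAActtttgggtg

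The canonical POU2F2 transcript of 7057 bases held 1 such match, and so did that of MYB, outside its 3-prime untranslated region. Of 15760 canonical transcripts of tested genes, 19.3% held one. Among 12367 with a 3-prime untranslated region, 16.4% held one there, and that of POU2F2 is 5147 bases long against a median of 1324. The other 7 tested members held 0. The POU2F2 match lies 3250 bases before the 3-prime end, and its part in the KD values was not tested.

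For the promoters, of the 10 genes, 8 had 11 entries among 35116 RefSeq promoters of GRCh38.p14, each from 250 bases before a start to 50 after it. Motifs were searched on both strands, and the 250 bases before the start are printed with matches in capitals. POU2F2 held TGTGGT, the core that RUNX proteins bind, 67 bases before its start. Directly after it, without overlap, stood the reverse complement of GAGGAA, a core of PU.1 sites. TGTGGT was present in 13.1% of all promoters and GAGGAA in 27.9%.
POU2F2, chr19:42132447-42132696, minus strand: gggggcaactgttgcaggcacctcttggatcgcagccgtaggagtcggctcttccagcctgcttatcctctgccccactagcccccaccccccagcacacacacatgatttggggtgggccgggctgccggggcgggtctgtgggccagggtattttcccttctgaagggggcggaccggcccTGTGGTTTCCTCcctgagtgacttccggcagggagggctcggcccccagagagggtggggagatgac

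GFI1 had 3 starts. One held TGTGGT and TTGCGCAA, a match to the C/EBP pattern TTGCNNAA, which 10.5% of all promoters held. Another held AATCNNNGC, built on the core that GFI1 itself binds and present in 11% of all promoters.
GFI1, chr1:92486100-92486349, minus strand: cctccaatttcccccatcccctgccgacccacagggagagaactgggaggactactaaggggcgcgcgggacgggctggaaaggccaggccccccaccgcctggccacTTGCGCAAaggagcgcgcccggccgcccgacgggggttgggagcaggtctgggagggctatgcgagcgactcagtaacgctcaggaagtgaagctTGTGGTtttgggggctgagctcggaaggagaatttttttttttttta
GFI1, chr1:92486926-92487175, minus strand: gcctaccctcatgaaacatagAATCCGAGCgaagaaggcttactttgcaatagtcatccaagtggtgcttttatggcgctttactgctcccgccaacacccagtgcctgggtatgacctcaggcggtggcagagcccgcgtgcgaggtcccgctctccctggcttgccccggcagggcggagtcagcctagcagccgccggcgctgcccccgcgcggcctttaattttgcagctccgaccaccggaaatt

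PU.1 cores were found in 6 of the 11 member promoters. Across all 11 the octamer ATGCAAAT, found in 1.77% of all promoters, had 0 matches. The NF-kB motif, which 1.91% of all promoters held, also had 0, as had AACNGTC, a MYB site held by 6.73%. CACGTG, the E-box of MYC, was found in that of KLF4 and in 7.26% of all. A match is a string of letters and does not show binding, and these 3-prime reads do not tell which start was used.

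**Figure D1:**
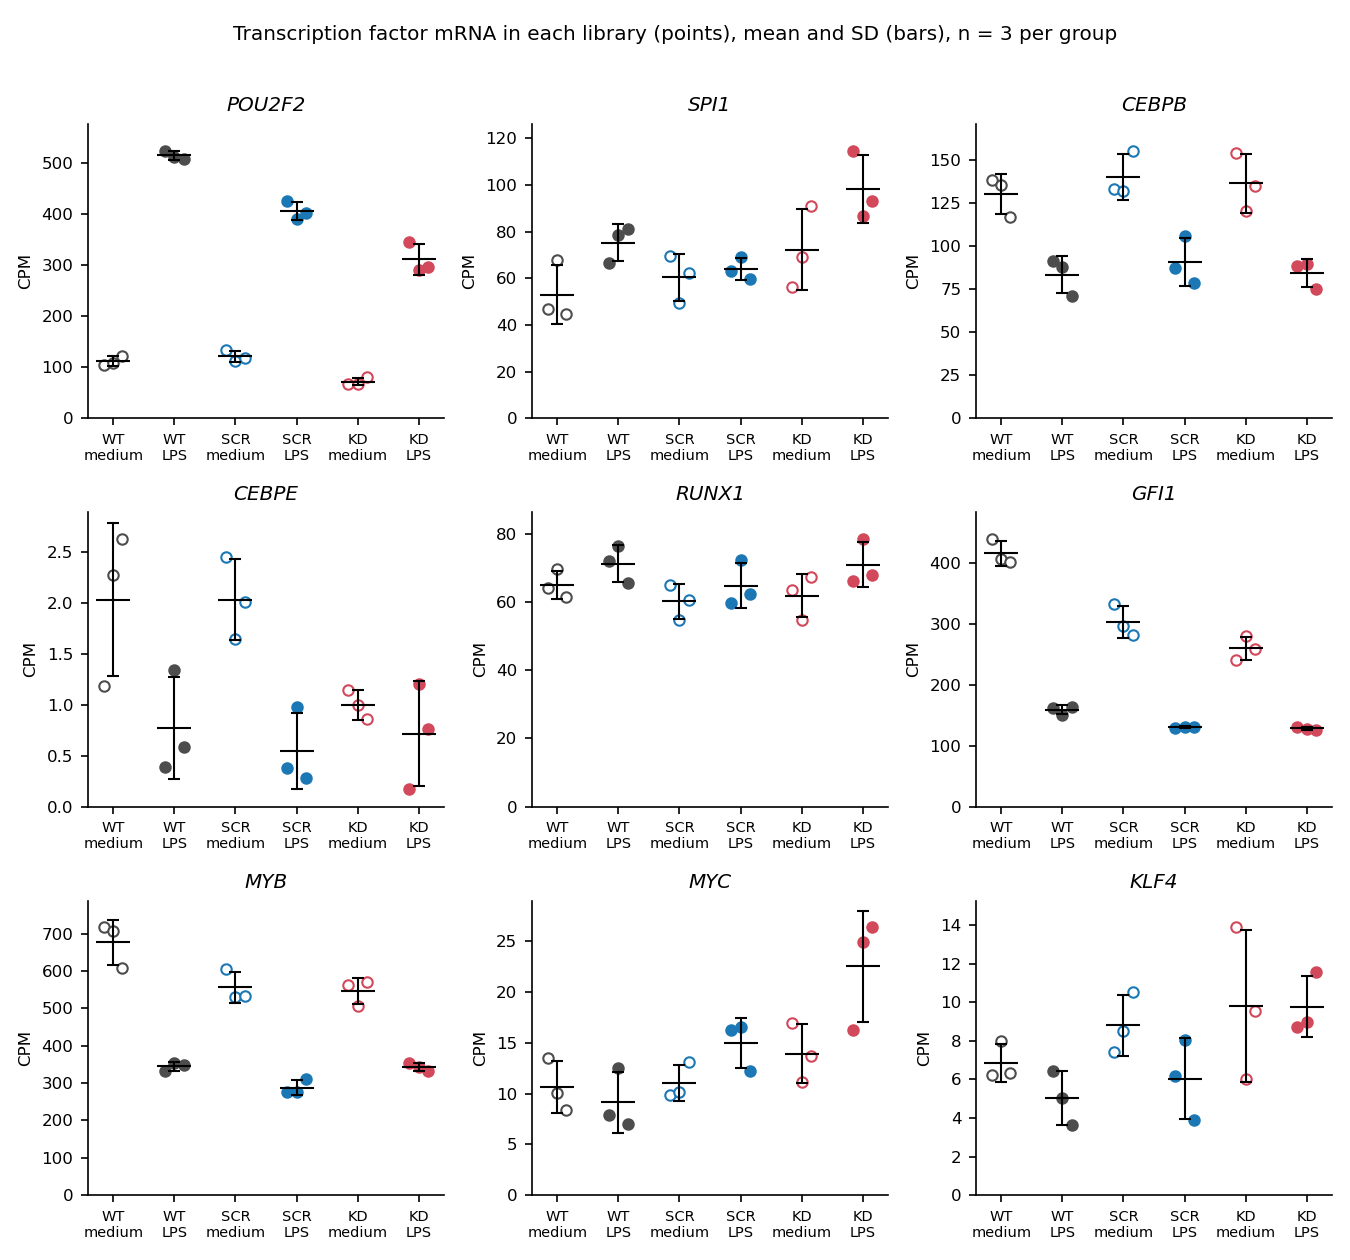
CPM of the 9 tested factors, 1 panel per gene, in the 6 groups (open points medium, filled points LPS; grey WT, blue SCR, red KD). Points are libraries, the wide dash is the mean and the error bar the SD (n = 3). POU2F2 stood higher in all 9 LPS libraries (292 to 525 CPM) than in all 9 medium libraries (67.6 to 133 CPM), whereas GFI1, MYB and CEBPB stood lower with LPS.

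POU2F2 (ENSG00000028277, chr19:42590262-42700737 of GRCh37, minus strand) rose with LPS. In WT the libraries held 104, 109 and 123 CPM with medium and 525, 513 and 509 CPM with LPS. In SCR they held 133, 113 and 119 CPM with medium and 427, 391 and 403 CPM with LPS. In KD they held 67.9, 67.6 and 80.2 CPM with medium and 347, 292 and 297 CPM with LPS. Every LPS library lay above every medium library, also across conditions, and with LPS the 3 conditions did not overlap, WT being the highest and KD the lowest. With medium, WT and SCR overlapped and KD lay below both.

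The comparison of LPS with medium asks which genes answer a bacterial stimulus. In WT, whose libraries played no part in choosing POU2F2, LPS raised it 4.60-fold (log2 fold change 2.20, SE 0.10, edgeR quasi-likelihood adjusted p 8.9e-13). In SCR the rise was 3.34-fold (log2 1.74, SE 0.10) and in KD 4.34-fold (log2 2.12, SE 0.10). Both use the medium libraries on which POU2F2 was selected, so that they are given as a description. The LPS response in SCR was 0.46 smaller than in WT on the log2 scale (SE 0.14), that in KD was larger than in SCR by 0.38 (SE 0.14) and smaller than in WT by 0.09 (SE 0.14). Each of these differences uses medium libraries of the selection, so that none carries a test. A bulk measurement cannot tell more POU2F2 RNA per cell from a larger share of cells that express it.

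Because POU2F2 marks B cells, 8 B lineage markers were read beside it. MS4A1, CD79A and POU2AF1 stayed at 0 to 3 counts in every library. PAX5, a B lineage regulator, was present throughout at 26.1 to 49.9 CPM. Their summed level, most of it PAX5, was 30.9 to 36.1 CPM in WT with medium and 39.5 to 46.8 CPM with LPS. In SCR it was 36.4 to 46.7 and 44.9 to 50.3 CPM, and in KD 39.3 to 42.1 and 51.5 to 55.6 CPM. EBF1, another B lineage regulator, rose with LPS in all 3 conditions, by log2 3.66 (SE 0.82) in WT, 2.16 (SE 0.73) in SCR and 2.76 (SE 0.78) in KD, while never exceeding 1.86 CPM. The part of these genes in the POU2F2 result was not tested. The T cell markers summed to at most 2.47 CPM.

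GFI1 (ENSG00000162676, chr1:92938600-92952482, minus strand) moved the opposite way. With medium its libraries held 439, 406 and 400 CPM in WT, 332, 296 and 281 CPM in SCR, and 240, 279 and 259 CPM in KD. With LPS they held 162, 151 and 164 CPM in WT, 129, 131 and 131 CPM in SCR, and 131, 128 and 126 CPM in KD. The levels with medium fell in the order WT, SCR, KD with no overlap between neighbours. With LPS, WT lay above both other conditions, and SCR and KD overlapped.

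With LPS GFI1 was 57.0% lower in SCR (log2 -1.22, SE 0.08, edgeR adjusted p 1.3e-09) and 50.6% lower in KD (log2 -1.02, SE 0.08, edgeR adjusted p 2.3e-08). The value in WT, on which GFI1 was chosen, was a log2 fold change of -1.39 (SE 0.08).

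MYB (ENSG00000118513, chr6:135502446-135540311, plus strand), the progenitor factor, was lowered by LPS in each condition. With medium its libraries held 717, 707 and 607 CPM in WT, 604, 530 and 534 CPM in SCR, and 563, 506 and 571 CPM in KD. With LPS they held 331, 354 and 347 CPM in WT, 276, 275 and 312 CPM in SCR, and 354, 343 and 331 CPM in KD. Medium and LPS libraries did not overlap in any condition, and with LPS the SCR libraries lay below both others. The log2 fold change was -0.98 (SE 0.09, edgeR adjusted p 3.9e-08) in WT, -0.95 (SE 0.09, adjusted p 7.8e-08) in SCR and -0.67 (SE 0.09, adjusted p 1.3e-05) in KD.

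The C/EBP members differed widely in level. CEBPB (ENSG00000172216, chr20:48807367-48809205, plus strand), which acts in activated macrophages, was 117 to 155 CPM over the 9 medium libraries and 70.9 to 106 CPM over the 9 LPS libraries, without overlap. It was 36.0% lower with LPS in WT, 35.3% in SCR and 38.3% in KD, a fall past the threshold in each (edgeR adjusted p 0.0013, 0.0017 and 0.00099). The 3 log2 fold changes were -0.64, -0.63 and -0.70 (SE 0.13 each).

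CEBPE (ENSG00000092067, chr14:23586245-23589465, minus strand), a factor of late granulocytes, was rare. It had 11 to 59 counts in the medium libraries and 2 to 20 in the LPS libraries, or 0.855 to 2.62 and 0.175 to 1.34 CPM. Only in SCR did its fall with LPS pass the threshold (log2 -1.85, SE 0.60, edgeR adjusted p 0.037), a call lost in 4 of the 6 fits that left out a library (adjusted p up to 0.16), those without SCR replicate 1, 3, 4 or 6. In WT the value was -1.36 (SE 0.58, adjusted p 0.13) and in KD -0.43 (SE 0.59, adjusted p 0.69). The differences of response involving CEBPE did not pass the threshold either.

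CEBPA (ENSG00000245848, chr19:33790840-33793440, minus strand), the C/EBP protein of the earliest myeloid progenitors, had 5 counts in all 18 libraries together and at most 2 in any. No library reached the 3 counts that 0 allows, and the gene was not tested. CEBPA-DT, a non-coding RNA read from the other strand beside it, had 62 to 328 counts per library. Of the 10 genes, CEBPA was the only one with another annotated gene over the last 500 bases of its canonical transcript, a non-coding RNA on the opposite strand with 0 counts. The authors counted reads only in the last 500 bases of each gene, taken here as the 3-prime end, so that a low count refers to that stretch.

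SPI1 (ENSG00000066336, chr11:47376411-47400098, minus strand), which encodes PU.1, spread widely. With medium it was 46.7, 67.7 and 44.5 CPM in WT, 69.3, 49.5 and 62.4 CPM in SCR, and 56.4, 69.3 and 90.9 CPM in KD. With LPS it was 66.4, 78.5 and 81.0 CPM in WT, 63.0, 69.2 and 59.6 CPM in SCR, and 115, 86.8 and 93.2 CPM in KD. Medium and LPS libraries overlapped in all 3 conditions, and the KD libraries with LPS lay above those of WT and SCR with LPS. The LPS response was log2 0.51 (SE 0.17, edgeR adjusted p 0.053) in WT, 0.08 (SE 0.17, adjusted p 0.81) in SCR and 0.44 (SE 0.17, adjusted p 0.10) in KD. The WT value passed the threshold under 5 of 10 alternatives.

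RUNX1 (ENSG00000159216, chr21:36160098-37376965, minus strand) was 54.9 to 78.5 CPM over all 18 libraries, and all groups next to each other in level overlapped. Its LPS response was log2 0.13 in WT, 0.11 in SCR and 0.20 in KD (SE 0.11 each), with edgeR adjusted p of 0.49, 0.57 and 0.27.

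MYC (ENSG00000136997, chr8:128747680-128755197, plus strand), the growth regulator, had no LPS response past the threshold by edgeR. With medium its libraries held 13.5, 10.1 and 8.36 CPM in WT, 9.87, 10.1 and 13.1 CPM in SCR, and 17.0, 11.2 and 13.7 CPM in KD. With LPS they held 7.88, 12.5 and 6.95 CPM in WT, 16.3, 16.5 and 12.2 CPM in SCR, and 16.3, 25.0 and 26.4 CPM in KD. Medium and LPS overlapped in each condition, while with LPS every KD library lay above every WT library. The LPS response was log2 -0.21 (SE 0.25, edgeR adjusted p 0.64) in WT, 0.44 (SE 0.24, adjusted p 0.23) in SCR and 0.69 (SE 0.23, adjusted p 0.059) in KD. The KD value passed under 4 of 10 alternatives, with an edgeR adjusted p down to 0.0093 with no filter on low counts. DESeq2 was among the 4, with an adjusted p of 0.044.

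KLF4 (ENSG00000136826, chr9:110247133-110252763, minus strand), the late monocyte factor, was 3.62 to 13.9 CPM from 37 to 207 counts per library. Its LPS response was log2 -0.44 (SE 0.30, edgeR adjusted p 0.38) in WT, -0.54 (SE 0.29, adjusted p 0.22) in SCR and -0.02 (SE 0.28, adjusted p 0.98) in KD. Medium and LPS libraries overlapped in each condition.

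**Figure D2:**
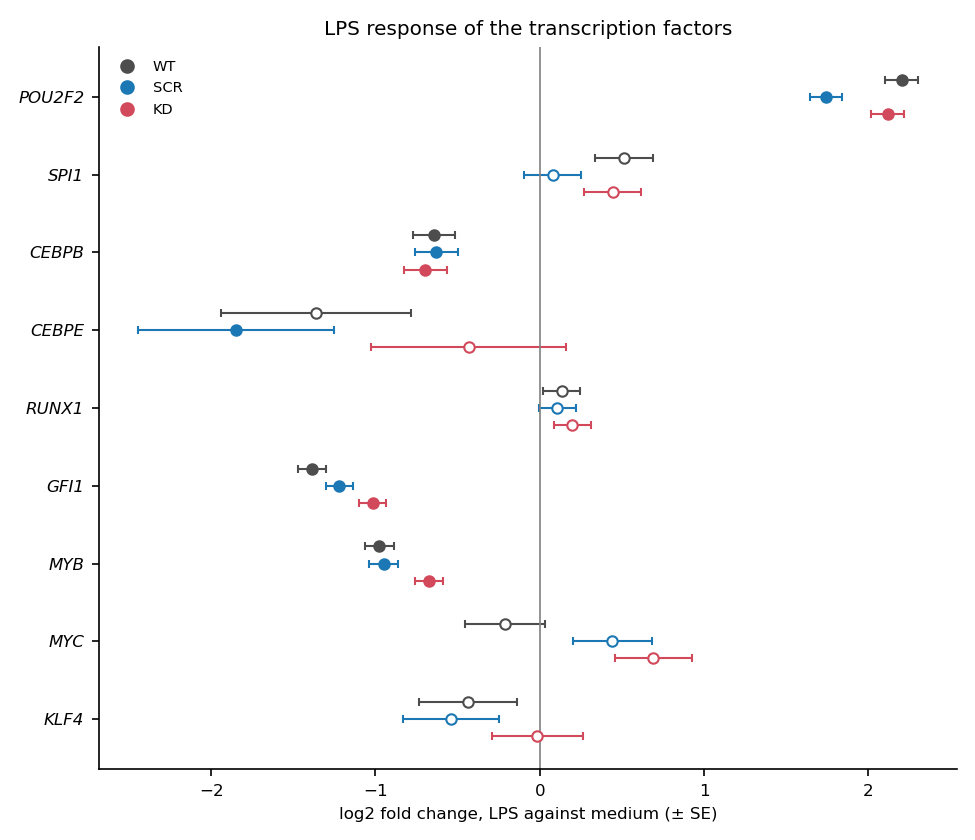
log2 fold change of LPS against medium for the 9 tested factors in WT (grey), SCR (blue) and KD (red), with the SE as error bar; filled points passed an edgeR adjusted p of 0.05. POU2F2 lies between 1.74 and 2.20, and GFI1, MYB and CEBPB lie below 0 in all 3 conditions.

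By edgeR, 4 of the 9 tested members passed the threshold with LPS in WT, 1 higher and 3 lower, where 14.3% of all tested genes did (7.01% higher and 7.26% lower). In SCR it was 5, 1 higher and 4 lower, against 17.2% (8.64% and 8.56%). In KD it was 4, 1 higher and 3 lower, against 11.5% (6.41% and 5.05%). The WT count includes GFI1, whose call there is part of how it was chosen, and the 1 higher in SCR and in KD is POU2F2, given there as a description. The median log2 response of the 9 was -0.44, -0.54 and -0.02 in WT, SCR and KD, beside -0.03, -0.03 and 0.00 over all tested genes.

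The LPS responses in WT, SCR and KD were then compared with each other. For counts at an unadjusted p or by DESeq2, here and below, no share of all genes is given as background. Such counts are therefore no result about the members or a list as a set. By edgeR 0 of the 9 members differed between KD and SCR, where 0% of all genes did, with 2 members at an unadjusted p under 0.05 and 0 called by DESeq2. Between SCR and WT it was 0 of 9, against 0.234% of all genes, with 1 at an unadjusted p under 0.05 and 0 by DESeq2. Between KD and WT it was 0 of 9, against 0.360%, with 3 at an unadjusted p under 0.05 and 0 by DESeq2. These counts at an unadjusted p include POU2F2 for KD against SCR and, as the 1 member, for SCR against WT, and GFI1 for KD against WT, whose differences use libraries that chose them and carry no test. The log2 response of MYB was -0.67 in KD and -0.98 in WT, a difference of 0.30 (SE 0.12, edgeR adjusted p 0.25), and its difference between KD and SCR was 0.28 (SE 0.12, adjusted p 0.63). The responses of MYC in KD and WT differed by 0.90 (SE 0.34, adjusted p 0.23).

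KD was set against SCR to see which genes follow TRAFD1. Without LPS it is the comparison on which POU2F2 was selected, and its value there, a log2 fold change of -0.76 (SE 0.10) or 40.9% lower, is a description. POU2F2 was the 1 member called by edgeR, where 0.0660% of all genes were. The same call was absent from a fit to the 6 libraries alone (log2 -0.72). GFI1, next among the members by adjusted p, was at log2 -0.22 (SE 0.08, edgeR adjusted p 0.26) with no overlap between groups. MYB was at -0.02 (SE 0.09) and SPI1 at 0.25 (SE 0.17, adjusted p 0.58).

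With LPS, in libraries not used to select POU2F2, it was 23.3% lower in KD than in SCR, each KD library below each SCR library (log2 -0.38, SE 0.10, edgeR adjusted p 0.17). The unadjusted p of this difference was 0.00062. It passed the threshold under 4 of 11 alternatives, with adjusted p down to 0.013, and kept its sign in all 11. SPI1 was 53.5% higher in KD, without overlap (log2 0.62, SE 0.17, edgeR adjusted p 0.20), and passed under 2 of 11 alternatives. By edgeR 0 of 9 members passed, where 0% of all genes did, with 5 members at an unadjusted p under 0.05 and 1 called by DESeq2. The shares of all genes for these last 2 counts are not given, so that neither is a result about the members as a set. MYB was at 0.25 (SE 0.09, adjusted p 0.26) and KLF4 at 0.69 (SE 0.29, adjusted p 0.35), both without overlap. MYC was at 0.59 (SE 0.23, adjusted p 0.33) and GFI1 at -0.02 (SE 0.08, adjusted p 0.94).

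SCR against WT shows what the control siRNA goes with, in cells that may also differ in how they were handled. Without LPS, GFI1 was 27.0% lower in SCR (log2 -0.45, SE 0.08), given without a test in a comparison that shares the WT medium libraries on which GFI1 was chosen. It was the 1 member called, where 3.23% of all genes were. Beside this, the 10 monocytic markers summed to 1011 to 1102 CPM in WT and 1143 to 1267 CPM in SCR. By edgeR 2 of the 10 were called higher in SCR, CD14 (2.20-fold) and FCER1G (1.37-fold), and 0 lower. TYROBP, LYZ, CD4 and CSF1R had lower means in SCR. The part of the 10 markers in the result was not tested. MYB was 17.8% lower without overlap (log2 -0.28, SE 0.09, adjusted p 0.072) and passed with DESeq2 and with the replicate number as a block (adjusted p down to 0.027). POU2F2 was at 0.12 (SE 0.10), in medium libraries that were part of its selection. With LPS, 0 of 9 members passed by edgeR, where 0.114% of all genes did, with 4 at an unadjusted p under 0.05 and 2 called by DESeq2. These 2 were POU2F2 (log2 -0.34, SE 0.10, edgeR adjusted p 0.15, no overlap) and GFI1 (log2 -0.29, SE 0.08, no overlap), the latter in WT libraries that chose it.

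KD against WT joins the effects of an siRNA as such with those of the TRAFD1 siRNA, which cannot be told apart here. Without LPS 3 of 9 members passed by edgeR, where 11.7% of all genes did, and all 3 were lower in KD. GFI1 was 37.5% lower (log2 -0.68, SE 0.08), POU2F2 35.8% lower (log2 -0.64, SE 0.10) and MYB 19.2% lower (log2 -0.31, SE 0.09, adjusted p 0.022). GFI1 and POU2F2 share libraries here with the comparisons that chose them. The call of MYB was lost in 3 of 6 fits that left out a library, those without WT replicate 1 or 2 or KD replicate 2 (adjusted p up to 0.096). In a fit to the 6 libraries alone its adjusted p was 0.21. Beside this, the 10 monocytic markers summed to 1011 to 1102 CPM in WT and 1197 to 1323 CPM in KD. By edgeR 3 of them, CD14, CD68 and FCER1G, were called higher in KD and 0 lower. LYZ and ITGAM had lower means in KD. The part of the 10 markers in the result was not tested.

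With LPS 4 of 9 members passed in KD against WT by edgeR, where 10.8% of all genes did. POU2F2 was 39.5% lower (log2 -0.73, SE 0.10, edgeR adjusted p 0.00044), in libraries that played no part in its selection. MYC was 2.46-fold higher (log2 1.30, SE 0.24, edgeR adjusted p 0.0032) and KLF4 1.95-fold higher (log2 0.96, SE 0.30, adjusted p 0.041). GFI1 was 19.3% lower (log2 -0.31, SE 0.08), in WT libraries used to choose it. KLF4 lost its call in 5 of 6 fits that left out a library, all but the one without WT replicate 4 (adjusted p up to 0.20). GFI1 lost it in 5 of 6, all but the one without WT replicate 5, with log2 values from -0.35 to -0.29 over the 6. The monocytic markers summed to 1089 to 1178 CPM in WT and 1145 to 1276 CPM in KD. MYB, lower in KD than in WT with medium, was at -0.01 (SE 0.09) with LPS.

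**Figure D3:**
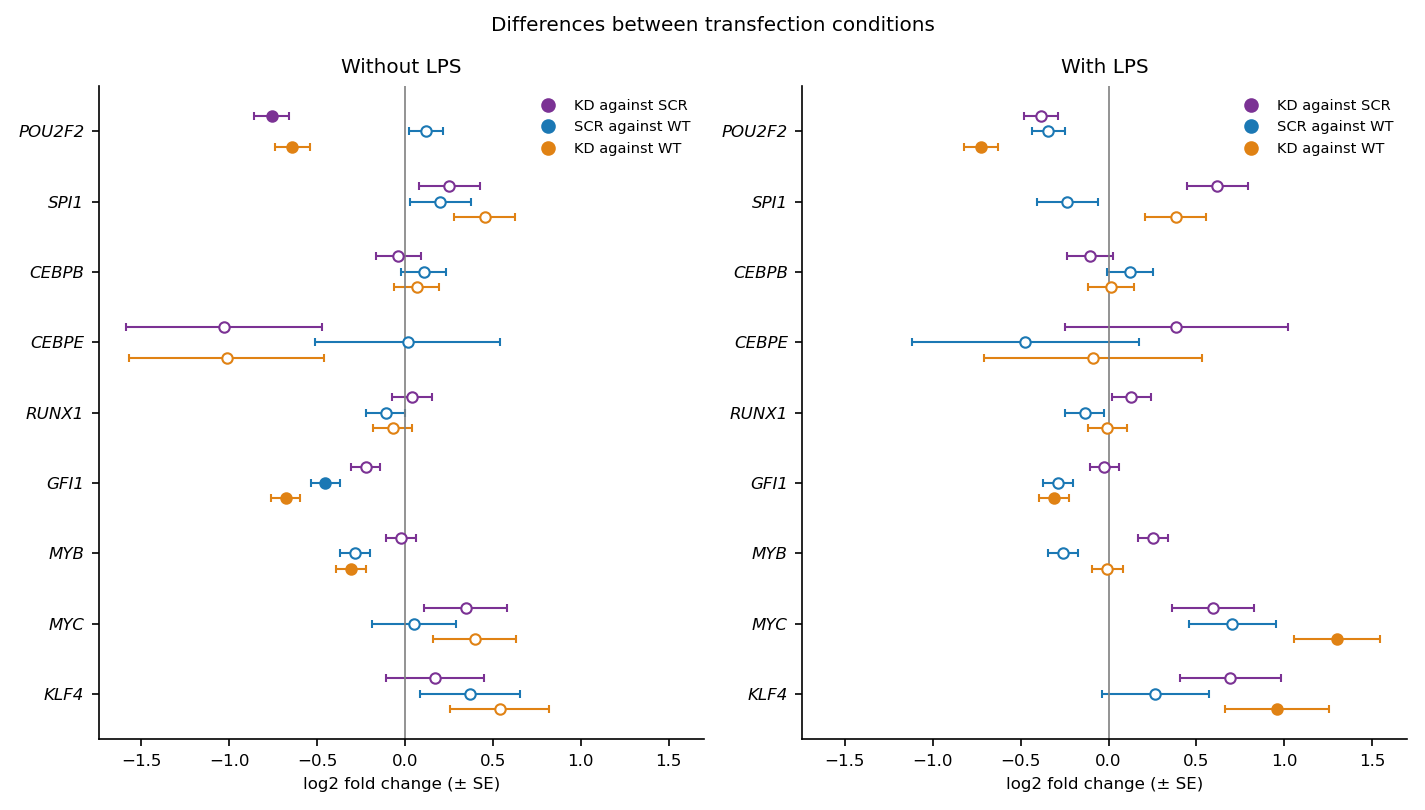
log2 fold changes between conditions for the 9 tested factors without LPS (left) and with LPS (right), KD against SCR in purple, SCR against WT in blue and KD against WT in orange, with the SE as error bar; filled points passed an edgeR adjusted p of 0.05. POU2F2 lies below 0 in both panels for KD, and MYC and KLF4 lie above 0 for KD with LPS.

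Lists of related genes, none of which holds a member, place these values, and their counts stand beside 14.3%, 17.2% and 11.5% of all tested genes called with LPS in WT, SCR and KD. The monocyte factors had 17 tested genes, of which 7 rose and 2 fell with LPS in WT, 7 and 0 in SCR, and 5 and 0 in KD. PRDM1, a repressor, rose (log2 1.45, 1.51 and 1.29 for WT, SCR and KD, SE at most 0.21). The repressor ZEB2 rose by 0.62, 0.62 and 0.46 (SE 0.09 each). The list's median log2 response was 0.16, 0.47 and 0.61.

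Stem and progenitor factors went down more often than up. Of 15 tested, 6 fell and 1 rose in WT, 6 and 1 in SCR, and 4 and 1 in KD, with a median of -0.32, -0.43 and -0.33. The falls included LMO4, a LIM protein (log2 -1.27, -0.94 and -0.77 in WT, SCR and KD, SE 0.11 each), and ZNF521, a progenitor cofactor (-0.79, -0.58 and -0.97, SE 0.11 each). The gene that rose was IKZF1, a lymphoid and myeloid regulator (0.80, 0.69 and 0.46, SE 0.10 each).

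A list of 10 genes around the C/EBP family held bZIP factors and, not of the bZIP type, CEBPZ, TRIB1 and TRIB2. Of the 10, 4 fell and 2 rose in WT, 4 and 3 in SCR, and 3 and 3 in KD. CEBPZ was among those that rose in each (log2 0.62, 0.82 and 0.62, SE 0.15 each). ATF4, the effector of the integrated stress response, fell from 1527 ± 152 to 577 ± 28.4 CPM in WT, and by log2 -1.64 (SE 0.10) in SCR and -1.46 (SE 0.10) in KD. DDIT3, also a stress factor, fell by -1.18, -1.11 and -1.48 (SE 0.13 each). BATF2, an activator in inflamed macrophages, rose by 1.17, 1.04 and 0.83 (SE 0.14 each). The median of the list was -0.19, -0.13 and -0.27.

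Of 13 ETS and RUNX genes, 3 rose and 2 fell in WT and in SCR, and 1 and 1 in KD, with medians of 0.03, 0.22 and 0.16. ETS2 rose by log2 0.82, 0.45 and 0.75 (SE 0.11 each), and FLI1 fell by -0.90, -0.54 and -0.38 (SE 0.12 each). The call of FLI1 in KD was lost in 4 of the 6 fits that left out a library, without KD replicate 1, 3, 4 or 5 (adjusted p up to 0.19). That of ETS2 in SCR was lost without SCR replicate 5 (adjusted p 0.070). Of 4 octamer-related genes edgeR called 1 lower in WT, 2 in SCR and 0 in KD, where 1 had an unadjusted p under 0.05 and DESeq2 called 1. The gene in WT was POU2F1, the ubiquitous octamer factor, at log2 -0.52 (SE 0.10), named after its value was seen.

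In the MYB and MYC network 2 of 15 genes fell and 0 rose in WT, 3 and 1 in SCR, and 1 and 0 in KD. MXI1, a MYC antagonist, fell by log2 -1.36, -0.87 and -0.88 (SE 0.15, 0.14 and 0.14). Of 12 KLF genes edgeR called 2 lower with LPS in WT, 1 in SCR and 0 in KD. In none of the 3 was one called higher. In KD 3 had an unadjusted p under 0.05 and DESeq2 called 0. With LPS 4 of the 12 KLF genes were higher in KD than in WT and 0 were lower, where 10.8% of all tested genes were called. Among the 4 were KLF10 (40.7 ± 13.2 against 15.2 ± 2.95 CPM) and KLF2 (29.9 ± 4.23 against 15.8 ± 3.69 CPM, SD, n = 3 each). Without LPS, SCR against WT had 3 KLF genes higher and 0 lower, where 3.23% of all tested genes were called. The call of KLF2 in KD against WT with LPS was lost without WT replicate 6 (adjusted p 0.051).

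A list of 14 cofactors held corepressors, partners of GFI1 and RUNX1 among them, and the coactivators EP300 and CREBBP. Of the 14, 3 fell and 0 rose in WT, 4 and 2 in SCR, and 3 and 0 in KD. EP300 was 1 of the 2 that rose in SCR (log2 0.41, edgeR adjusted p 0.040). TLE3, a Groucho corepressor, fell by log2 -0.51, -0.65 and -0.56 (SE 0.10 each). HDAC1 and HDAC3, histone deacetylases, were lower without LPS both in KD than in WT (log2 -0.51 and -0.75, SE 0.10 each) and in SCR than in WT (-0.53 and -0.39, SE 0.10 each). HDAC1 in KD lost its call in a fit to the 6 libraries alone (adjusted p 0.099), and HDAC3 in SCR lost it without WT replicate 3 or any 1 SCR replicate (up to 0.16). Of 24 myeloid target genes, 2 rose and 2 fell in WT, 2 and 1 in SCR, and 3 and 2 in KD. Of all tested genes 14.3%, 17.2% and 11.5% were called in WT, SCR and KD. CYBB, the catalytic subunit of the phagocyte oxidase, rose by 1.49, 1.03 and 0.73 (SE 0.17 each). CD14, a coreceptor for LPS, fell by -0.74, -1.53 and -1.07 (SE 0.21 each). Its call in WT was lost without WT replicate 2, 3, 4 or 6 (adjusted p up to 0.17). Between KD and SCR edgeR called 0 genes in each of these 9 lists, with or without LPS. Of all tested genes 0.0660% were called there without LPS and 0% with LPS, so that 0 per list is no result about the lists. Per list, 0 to 6 genes had an unadjusted p under 0.05 and DESeq2 called 0 or 1.

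**Figure D4:**
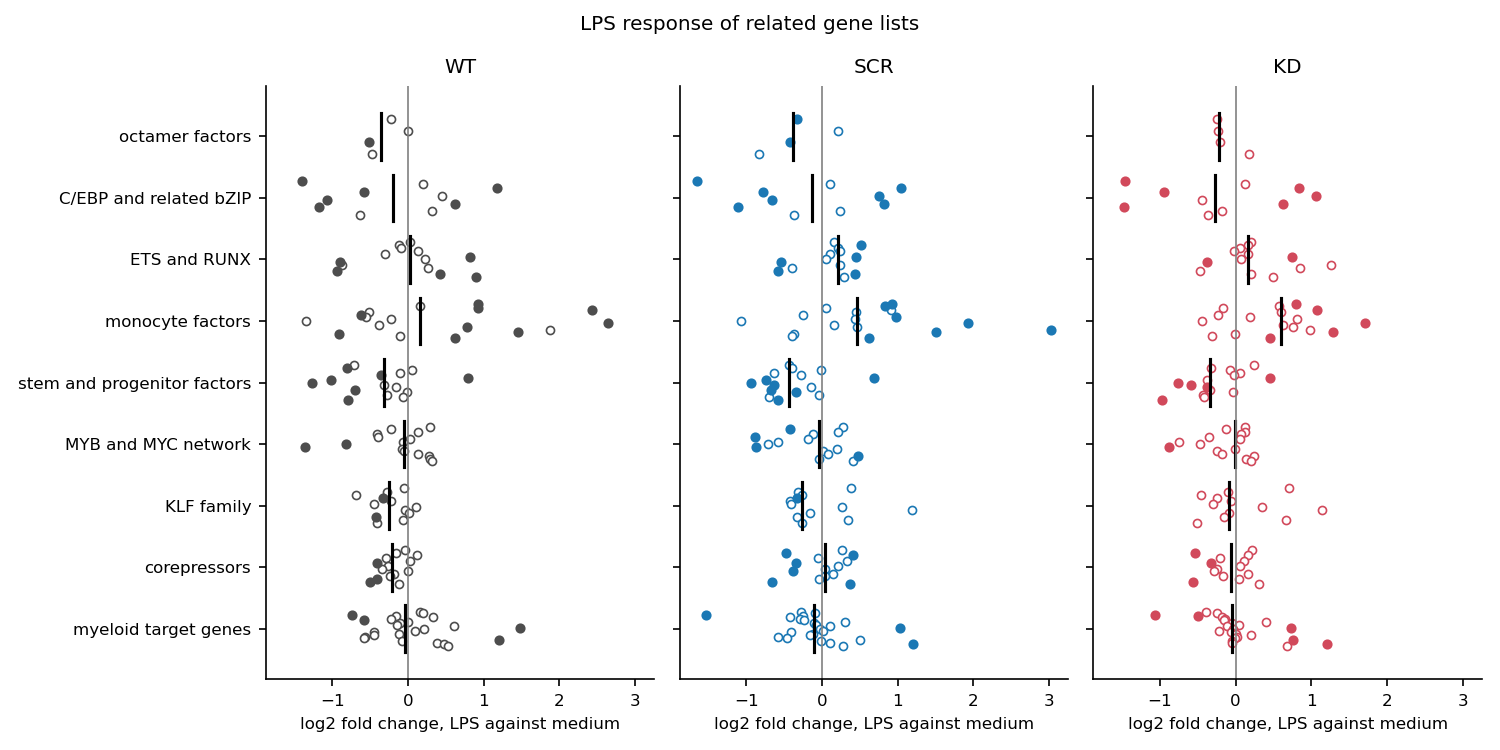
log2 fold change of LPS against medium in WT, SCR and KD for the genes of 9 lists related to these factors. Each point is a gene, filled where it passed an edgeR adjusted p of 0.05, and the black bar is the median of the list. Stem and progenitor factors have their median below 0 (-0.32, -0.43 and -0.33) and monocyte factors above 0 (0.16, 0.47 and 0.61).

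Genes whose pattern was most like that of a member were sought by Pearson's r of log2 CPM over the 18 libraries. The libraries share their LPS state, so that r mostly follows the response to LPS. For POU2F2 the 5 highest were IFNGR2, the signalling chain of the interferon gamma receptor (r = 0.992), BMT2 (0.980), DTX4 (0.978), NAV3 (0.977) and MTF1 (0.976). IFNGR2 stood at 93.2 to 117 CPM in the group means with medium and at 197 to 249 CPM with LPS. It was lowest in KD in both states as POU2F2 was, and so were BMT2, DTX4, NAV3 and MTF1. All 5 were picked for likeness over these same libraries, so that this is no further result. Among the lowest r were those of GARS1 (-0.969) and OTULINL (-0.966).

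For GFI1 the nearest were RGMA (0.974) and SLC38A2 (0.970), for MYB they were COL9A3 (0.974) and FRAT2 (0.969), and for MYC CAMK2D (0.924) and PPP1R14BP3 (0.916). For the others the highest r was 0.947 for CEBPB, 0.918 for KLF4, 0.906 for SPI1, 0.887 for CEBPE and 0.774 for RUNX1. Among the members themselves GFI1 and MYB had an r of 0.96, and 0.23 once the mean of each group was removed. POU2F2 and GFI1 had -0.81 and, within groups, 0.14. MYC and KLF4 had 0.58 and 0.57.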

How the data were processed

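RNA was measured in 18 THP-1 libraries made with QuantSeq, which reads the 3-prime ends of polyadenylated transcripts. According to the study's methods the authors aligned reads to GRCh37 with HISAT and counted them with featureCounts in an annotation cut to the last 500 bases of each gene. They deposited 1 table of raw read counts. All 18 columns were used and 0 were left out. Columns were matched to samples by name, and groups come from the labels.

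A table of Ensembl gene names gave symbols for 55675 identifiers, and GENCODE lifted to GRCh37 gave positions. All libraries entered 1 edgeR 4.0.16 model with 6 group means (R 4.3.3; TMM, filterByExpr, quasi-likelihood F test), with Benjamini-Hochberg adjustment over 16678 genes at 0.05. SE was taken as the absolute log2 fold change over the root of F. The fit was tested on simulated data with known changes. The 12 comparisons were 6 between conditions, 3 responses to LPS and 3 differences of responses. Likeness used log2 CPM with a prior count of 2. Promoters came from RefSeq.

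Alternatives were RLE scaling, no filter, DESeq2 1.42.0, the libraries of a comparison alone, a replicate block, and leaving out each library. Same-numbered libraries deviated together in 1 comparison, SCR against WT with LPS (r = 0.261, 0.163 and 0.253). The main fit did not pair them there or elsewhere, and the numbers entered only through the replicate block. LPS and medium share no number.

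Members and lists were chosen with earlier results of these data known. Named list genes were taken from those with the smallest adjusted p in SCR among genes past 0.05 in all 3 responses, up to 3 per direction, and up to 2 per list elsewhere. Some genes that this rule would name are not reported here.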

Additional observations from a re-analysis of the deposited data

How the results depend on the processing

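Members called, 22 results in all, kept direction and side of the threshold in 208 of 229 alternative values, with 21 no longer past it and 0 of opposite sign. The 22 include calls of POU2F2 and GFI1 that use libraries on which these genes were chosen. For those calls the alternatives use the same libraries and carry no test either. Of 1092 values for the 86 results not called, 26 passed the threshold, in 11 results, and 73 had the opposite sign, in 30 results. In a fit to the libraries of a comparison alone, 0 members were called for KD against SCR and 1 for KD against WT without LPS, and 2 for KD against SCR with LPS. With no filter on low counts, 2 were called for KD against SCR and 1 for SCR against WT, both with LPS. DESeq2 called 2 for SCR against WT without LPS, 1 for KD against SCR with LPS and 2 for SCR against WT with LPS. The replicate block moved the count to 2 for SCR against WT without LPS and to 1 for KD against SCR with LPS. It moved no count of members elsewhere, also not in SCR against WT with LPS, where same-numbered libraries deviated together. In the other comparisons same-numbered libraries correlated at -0.0875 to 0.304. The main fit read the numbers as pairs in no comparison. Leaving out 1 library gave 2 to 3 members called for KD against WT with LPS. No share of all genes is given for the counts under these alternatives. Among the values given above, those near 0 changed sign as follows. MYB in KD against SCR without LPS was 0.017 with the libraries alone and -0.059 to 0.040 with 1 library left out, and in KD against WT with LPS it was -0.036 to 0.020. The LPS response ran from -0.51 to 0.0014 for MYC in WT, from -0.043 to 0.19 for SPI1 in SCR and from -0.26 to 0.32 for KLF4 in KD. The difference between the POU2F2 responses of KD and WT ran from -0.17 to 0.0014. The cause of these changes was not tested. Counts of 2 to 59 limit what can be said of CEBPE, and 5 counts that of CEBPA.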
